A study of Rattus norvegicus with 6 samples.

Results

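Collagen genes were taken from the mRNA table of rat sciatic nerve by their symbols, Col followed by the type number, the letter a and the chain number. A gene was kept where its counts summed to at least 10 over the 6 libraries, which left 41 of 30957 mRNA rows. The rule used names and total counts only, so the comparisons between groups were not used to choose the genes. Libraries came from Sprague-Dawley rats that were 1 month old, 2 rats in each of 3 groups. The control rats carried an unclamped sciatic nerve, described as a normal control in the labels and as operated on without the clamp in the study's methods. The D4 and D7 rats had the left sciatic nerve clamped with forceps in its middle segment and released, and the nerve was taken 4 days (D4) or 7 days (D7) later. The groups set early transcript levels of the crushed nerve against those of the unclamped nerve. No genetic change was described for any group, and each library was made from the nerve of 1 rat without pooling.

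Collagens are secreted proteins built of 3 alpha chains wound into a triple helix, and the gene name gives the type and the chain. Fibrillar collagens form the tensile fibres of connective tissue, type IV collagens form the sheet of basement membranes, and FACITs (fibril-associated collagens with interrupted triple helices) sit on the surface of fibrils. In peripheral nerve, fibrils fill the endoneurium and epineurium, while each Schwann cell and its axon lie inside a tube of basement membrane. The remaining types include the beaded filaments of type VI, the anchoring fibrils of type VII, the short-chain networks of type VIII, membrane-spanning collagens and the proteoglycan-like type XVIII.

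Counts per gene, deposited as whole numbers, summed to between 18727255 and 25350886 per library. Levels are given as normalised FPKM, the deposited fragment counts per gene length and library depth (FPKM) divided by the library's scaling factor (TMM, trimmed mean of M values), and are listed rat a before rat b. Changes are log2 fold changes from the counts with their standard error (±, n = 2 rats per group). A gene was called higher or lower where edgeR's quasi-likelihood test gave a Benjamini-Hochberg adjusted p under 0.05, over the 15195 mRNAs tested, together with a fold change of at least 2. These p-values measure the spread between 2 rats of a group. The nerve is a mixture of cells, so that fewer cells of a type and less RNA per cell cannot be told apart.

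Marker lists were read in the same fit. All 6 macrophage markers and all 4 markers of dividing cells were higher at D4, and the first list kept 5 calls and the second 4 at D7. Of 6 Schwann cell markers read here, 2 were lower (Mbp and Egr2) and 2 higher (Ngfr and Erbb3) at D4, and their summed level was 3639 to 5408 FPKM in control, 1855 to 1928 at D4 and 1684 to 2159 at D7. Of 4 endothelial markers found, 3 were lower at D4 and 4 at D7; of 6 mural markers, 1 and 3; of 4 perineurial markers, 1 and 3. Of 8 fibroblast markers, 1 was called, Mfap5, which was lower at D7. Among markers of tissue around the nerve, skeletal muscle had 1 of 5 lower at each day and adipocyte 1 of 4 lower at D7, while cartilage had 1 of 3 tested (Comp) higher at each day with Acan between 0.0872 and 0.266 FPKM. Of these lists the defining genes Clec3b, Pecam1, Myh2 and Myh4 had no row, and no marker with a row was at 0 in every library. Libraries stood apart in single tissues: the mural gene Acta2 was at 1237 FPKM in control rat b and at 77.2 to 227 elsewhere, and the summed adipocyte level was 4.95 FPKM in D7 rat a and 44.9 to 353 elsewhere.

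More collagen genes fell than rose after the crush. Of 39 collagen genes tested, 5 (12.8%) were called higher and 14 (35.9%) lower at D4, against 11.2% and 10.7% of all mRNAs tested. At D7, 6 (15.4%) were higher and 14 (35.9%) lower, against 9.83% and 9.02% of all mRNAs. The median log2 fold change of the collagen genes was -0.65 at D4 and -0.54 at D7, and that of all mRNAs was -0.04 and 0.01. The comparisons at D4 and at D7 share the control rats. Without TMM factors the median over all mRNAs was 0.25 at D4 and 0.31 at D7, and the collagen calls became 6 higher and 12 lower at D4 and 7 higher and 10 lower at D7.

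**Figure D1:**
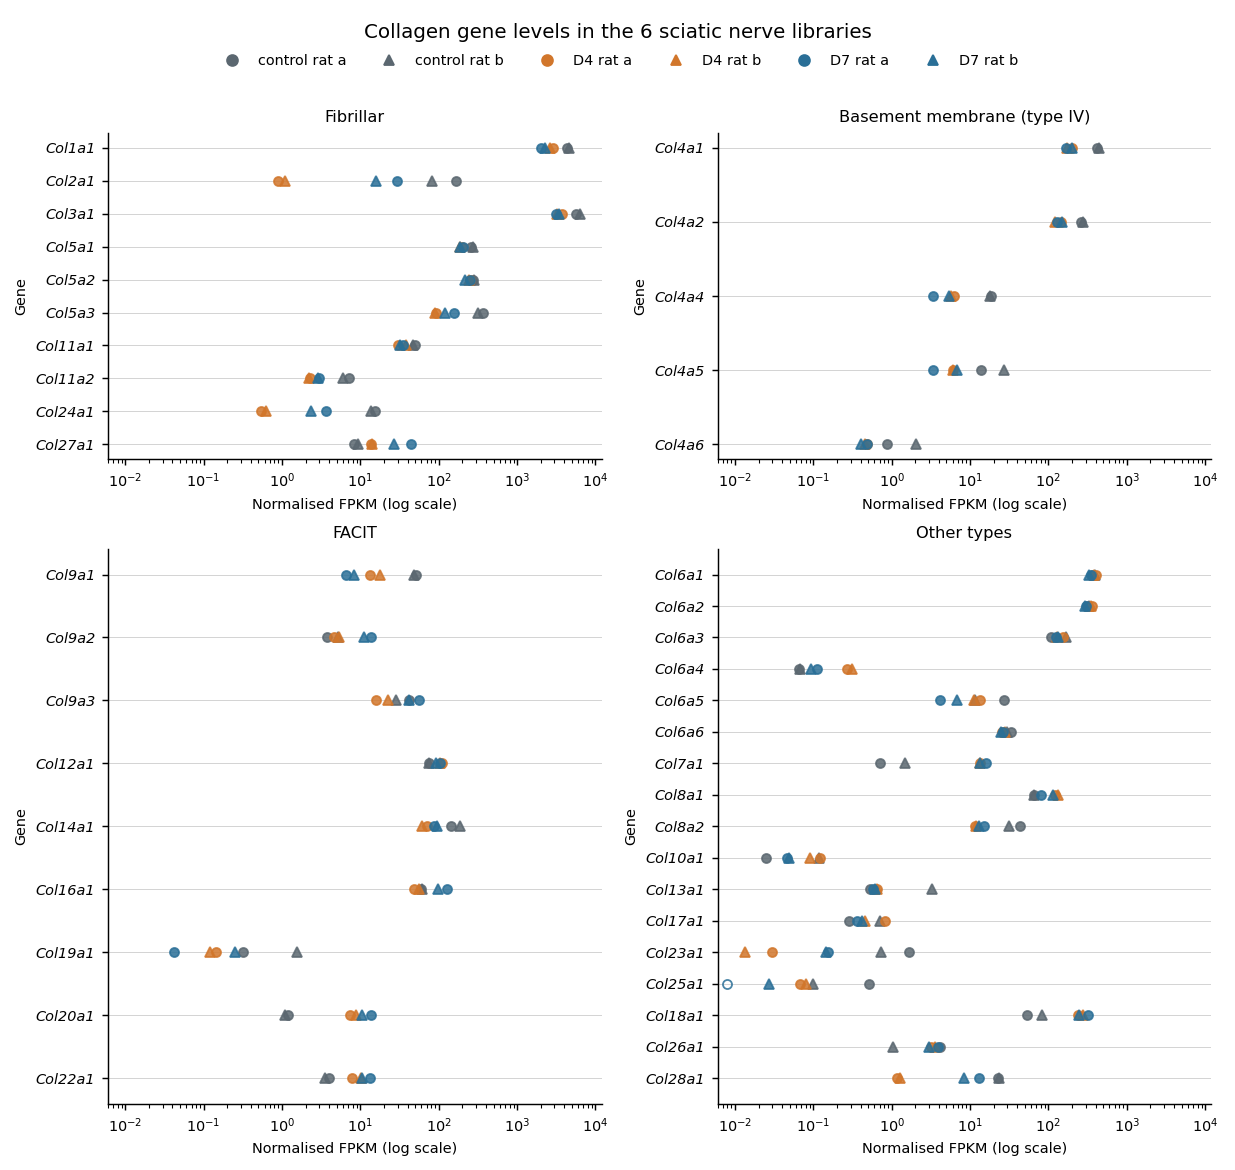
Normalised FPKM on a log scale (horizontal axis) of the 41 collagen genes (vertical axis, 4 panels by type) in each library, coloured by group with circles for rat a and triangles for rat b. The open circle of Col25a1 stands for 0 in D7 rat a and is drawn at the left edge. Levels ranged from 6355 FPKM for Col3a1 in control rat b to under 0.2 FPKM in every library for Col10a1, and the widest separation of D4 from control was that of Col2a1.

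Of the 10 fibrillar collagen genes, none was called higher at D4 by edgeR (1 passed an unadjusted p under 0.05 and DESeq2 called none), 4 were lower, and at D7 1 was higher and 5 lower. The fitted folds of the abundant chains Col1a1 and Col3a1 lay near or below 2-fold, and the largest falls were those of the scarcer Col2a1 and Col24a1. Col3a1, the chain of type III fibrils, was at 5665 and 6355 FPKM in control, 3723 and 3266 at D4 and 3147 and 3411 at D7. Col1a1, a chain of type I, the main fibril collagen, was at 4273 and 4539 FPKM in control, 2912 and 2660.5 at D4 and 2001 and 2252 at D7. For both genes each crushed nerve was below each control nerve. Col3a1 missed the 2-fold threshold at both days (log2 fold changes of -0.78 ± 0.14 and -0.87 ± 0.14), with edgeR's adjusted p at 0.00653 and 0.00564. Col1a1 missed it at D4 (-0.66 ± 0.13) and passed at D7, where it was 2.07-fold lower (-1.05 ± 0.13, edgeR's adjusted p = 0.00245). Without D7 rat a the D7 value of Col1a1 was -0.94 and the gene was no longer called, and without TMM factors it was -0.76 and not called. Its partner chain Col1a2 was listed at 0 in all 6 libraries, and whether its transcripts were absent or not counted was not tested. The type I heterotrimer could thus be followed through 1 chain only.

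The deepest falls among fibrillar genes were those of Col2a1 and Col24a1. Col2a1 (chr7:139455242-139483997 on Rnor_6.0, the build of the files), the type II chain best known from cartilage, was at 164 and 81.6 FPKM in control, 0.877 and 1.11 at D4 and 29.7 and 15.9 at D7. The D4 nerves were 123-fold lower than control on the fitted scale (-6.95 ± 0.53, edgeR's adjusted p = 0.000315) and the D7 nerves 5.39-fold lower (-2.43 ± 0.42, adjusted p = 0.00711). In the same control libraries Acan, the cartilage proteoglycan, was at 0.0872 and 0.1701 FPKM. Sox9, a transcription factor of cartilage and of other tissues, was at 8.61 and 9.76 FPKM in control, 4.47 and 5.701 at D4 and 8.001 and 7.59 at D7. It lay under 2-fold at D4 (-0.85 ± 0.15, adjusted p = 0.00605, edgeR) and was not called at either day, and Comp, the third cartilage marker, was higher at both. Matn3, the remaining marker of the list, did not pass the filter for testing. Its mean count scaled for depth was 10.2 in control and 6.19 at D4, and each D7 library held at most 3 counts. Col24a1, a minor fibrillar chain, followed the course of Col2a1 at a lower level, with 15.3 and 13.8 FPKM in control, 0.536 and 0.619 at D4 and 3.67 and 2.32 at D7. Its log2 fold change was -4.65 ± 0.26 at D4 (adjusted p = 0.0001603, edgeR) and -2.28 ± 0.23 at D7 (adjusted p = 0.00104). In Col2a1 and Col24a1 the 3 groups did not overlap, with D4 lowest and D7 in between.

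The type V and XI chains copolymerise with types I and II and limit fibril width. In each of these chains every crushed nerve was below every control nerve, and the falls differed in size. Col5a3 was at 371 and 312 FPKM in control, 93.6 and 90.2 at D4 and 159 and 119 at D7, a fall of 3.72-fold at D4 (-1.89 ± 0.17, edgeR's adjusted p = 0.000519) and 2.46-fold at D7 (-1.30 ± 0.17, adjusted p = 0.00255). Its partners were not called: Col5a1 was at 258 and 272 FPKM in control, 196 and 188 at D4 and 204 and 189 at D7. Col5a2 was at 276 and 283, 249.6 and 243 and 254 and 217 FPKM. The log2 fold changes of these 2 chains lay between -0.47 and -0.18 over both days. Col5a1 passed edgeR's adjusted p at D4 and D7 (0.0127 and 0.0199) and missed the 2-fold threshold only. Col5a2 did not pass it (0.234 and 0.135, edgeR). Col11a2 was lower at both days (-1.54 ± 0.12 and -1.16 ± 0.12) from 5.99 to 7.13 FPKM in control, whereas the more abundant Col11a1, at 49.6 and 47.6 FPKM in control, 29.9 and 38.2 at D4 and 34.5 and 32.03 at D7, was not called (-0.51 ± 0.14 and -0.54 ± 0.14). Col11a1 passed edgeR's adjusted p at D4 and D7 (0.0255 and 0.0240) and missed the 2-fold threshold only. The D7 call of Col11a2 was lost without TMM factors (-0.87).

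Col27a1 (chr5:79055521-79170765), a minor fibrillar chain, was the only one of the 10 fibrillar genes called higher than control. It was at 8.22 and 9.36 FPKM in control, 13.8 and 13.9 at D4 and 43.8 and 27.1 at D7. The groups were ordered control, D4, D7 with no overlap. At D7 it was 4.04-fold higher than control (2.01 ± 0.23, edgeR's adjusted p = 0.001602), and at D4 its log2 fold change of 0.66 ± 0.22 was not called.

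All 5 type IV genes kept by the rule were lower at D4, and 4 of them at D7. Rat type IV genes lie head to head in pairs, so that each pair is read outward from the region between its starts. Whether these regions bear on the falls was not tested. The bases between the starts of Col4a2 and Col4a1, and part of those between Col4a4 and Col4a3, are shown as background. They are from RefSeq promoter windows on GRCr8, plus strand, 5′ to 3′. Capitals mark the letters CCGCCC, the reverse complement of the GC box GGGCGG.
Col4a2 and Col4a1, chr16:84885521-84885596, the whole stretch between their starts: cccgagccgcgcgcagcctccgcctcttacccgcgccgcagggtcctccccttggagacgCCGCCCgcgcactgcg
Col4a4 and Col4a3, chr9:91323740-91323827, the part held by both windows: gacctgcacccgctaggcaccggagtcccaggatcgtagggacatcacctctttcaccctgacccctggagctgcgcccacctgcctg
The starts of Col4a2 and Col4a1 lay 77 bases apart, and the 76 bases between them were 78.9% G or C. Those of Col4a4 and Col4a3 lay 413 apart, and the 88 bases shown held no GC box on either strand. The starts of Col4a6 and Col4a5 were 1415 bases apart and their windows did not meet.

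Col4a1 and Col4a2 make the network found in nearly every basement membrane. Col4a1 was at 416 and 437 FPKM in control, 202 and 171 at D4 and 165 and 200.1 at D7. Col4a2 was at 261 and 277 FPKM in control, 144 and 122 at D4 and 128 and 149 at D7. In both chains every crushed nerve was below every control nerve, and the D4 and D7 nerves overlapped. Col4a1 fell 2.29-fold at D4 (-1.19 ± 0.14, edgeR's adjusted p = 0.00143) and 2.33-fold at D7 (-1.22 ± 0.14, adjusted p = 0.001802), calls that were lost without TMM factors. Col4a2 lay at the 2-fold threshold, with -1.02 ± 0.13 at D4 and -0.96 ± 0.13 at D7, where it was not called. Its D4 call was lost without control rat b (-0.98), without D4 rat b (-0.91) and without D7 rat a (-0.98). It was also lost without TMM factors, and a D7 call was gained without control rat a (-1.01) or D7 rat b (-1.08).

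The other type IV chains have narrower distributions in tissues, and mutations in Col4a4 and Col4a5 orthologues cause Alport syndrome of the kidney. Col4a4 was at 18.5 and 18.1 FPKM in control, 6.23 and 5.66 at D4 and 3.32 and 5.399 at D7, a fall of 3.08-fold (-1.62 ± 0.22, edgeR's adjusted p = 0.00227) and 4.195-fold (-2.07 ± 0.23, adjusted p = 0.00139). No row carried the symbol Col4a3. The row next to Col4a4 described as collagen alpha-3(IV) chain-like (LOC100911572), chosen after its values were seen, held 649 and 795 counts in control, 261 and 258 at D4 and 127 and 210 at D7. It was lower at both days (-2.01 ± 0.30 and -2.31 ± 0.30), as its neighbour was.

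Col4a5 was at 13.9 and 26.8 FPKM in control, 6.05 and 5.996 at D4 and 3.39 and 6.72 at D7. The control rats differed more than the D4 rats did, and control rat b, the higher, was also the library with the high Acta2. Col4a5 was 3.38-fold lower at D4 (-1.76 ± 0.40, edgeR's adjusted p = 0.0155) and 4.03-fold lower at D7 (-2.01 ± 0.41, adjusted p = 0.0123). The D4 call was lost without control rat b (-1.21, adjusted p = 0.0511), and without D4 rat a or D4 rat b (adjusted p = 0.0875 and 0.0902, edgeR). Col4a6, at 0.859 and 2.05 FPKM in control and 0.402 to 0.487 after the crush, had -1.62 ± 0.43 and -1.70 ± 0.44. Its D4 call was lost without control rat b (-0.87), D4 rat a or D4 rat b, and its D7 call without control rat b (-0.95) or any 1 D4 or D7 rat (adjusted p from 0.0575 to 0.102, edgeR). The summed endothelial markers were at 110 to 117 FPKM in control, 52.9 to 65.2 at D4 and 37.9 to 55.3 at D7. The summed mural markers were at 340 to 1511, 279 to 298 and 176 to 340.2 FPKM, so that D7 and control overlapped. Perineurial, Schwann cell, fibroblast and adipocyte sums were also lower in every crushed nerve than in either control nerve. Macrophage and dividing-cell sums were higher, and those of skeletal muscle and cartilage were not all on 1 side of control. Such sums follow the most abundant genes of a list. In control, Dcn alone was at 1166 and 1100 FPKM of fibroblast sums of 1638 and 1566. The median log2 fold change of the 8 fibroblast markers was 0.02 at D4 and -0.05 at D7. The part of any cell type in the falls of the type IV genes was not tested.

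**Figure D2:**
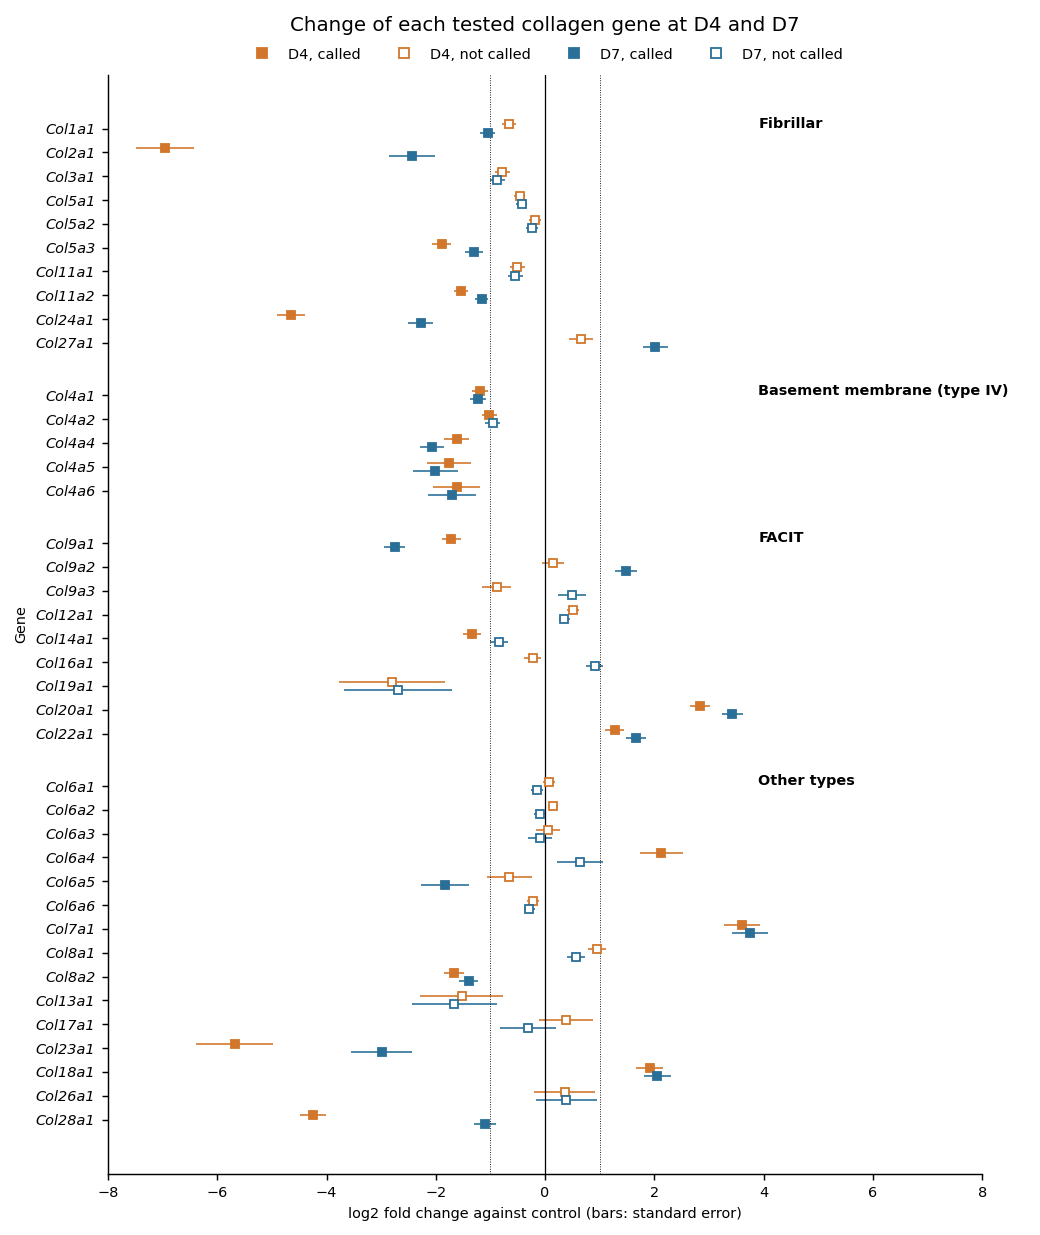
log2 fold change against control (horizontal axis, bars are standard errors) of the 39 tested collagen genes grouped by type (vertical axis), at D4 (orange) and D7 (blue). Filled squares were called, open squares were not, and dotted lines mark 2-fold; every type IV square lies left of 0, while the FACIT and other types hold squares on both sides.

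The 9 FACIT genes were divided, with 2 called higher and 2 lower at D4 and 3 higher and 1 lower at D7. Type IX, which decorates type II and XI fibrils, has 3 chains, and these moved apart. Col9a1 (chr9:30419001-30502298 on Rnor_6.0) was at 51.99 and 48.5 FPKM in control, 13.1 and 17.6 at D4 and 6.601 and 8.29 at D7. It fell 3.28-fold by D4 (-1.71 ± 0.18, edgeR's adjusted p = 0.000832) and 6.75-fold by D7 (-2.75 ± 0.19, adjusted p = 0.000401), the lowest group being D7. Col9a2 was at 3.78 and 5.22 FPKM in control, 4.61 and 5.35 at D4 and 13.8 and 11.3 at D7. It overlapped control at D4 and was 2.79-fold higher at D7 (1.48 ± 0.20, edgeR's adjusted p = 0.00286). Col9a3 was at 41.5 and 28.7 FPKM in control, 15.6 and 22.3 at D4 and 56.6 and 42.1 at D7, with values of -0.89 ± 0.26 and 0.49 ± 0.26 that were not called against control. Without control rat b, Col9a3 was called lower at D4 (-1.13).

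Col20a1 and Col22a1, FACITs of restricted tissue distribution, were higher at both days. Col20a1 (chr3:176494768-176526018 on Rnor_6.0) was at 1.18 and 1.09 FPKM in control, 7.36 and 8.78 at D4 and 13.8 and 10.5 at D7, a rise of 7.12-fold (2.83 ± 0.19, edgeR's adjusted p = 0.000221) and 10.7-fold (3.42 ± 0.19, adjusted p = 0.0003203). Col22a1, best known from tissue junctions such as that of muscle and tendon, was at 3.92 and 3.498 FPKM in control, 7.796 and 10.1 at D4 and 13.1 and 10.5 at D7 (1.27 ± 0.18 and 1.67 ± 0.18). In both genes each crushed nerve was above each control nerve.

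The FACITs that bind type I fibrils were the most abundant of the class. Col14a1 was at 143 and 189 FPKM in control, 71.2 and 60.6 at D4 and 88.2 and 96.1 at D7. It was 2.52-fold lower at D4 (-1.33 ± 0.16, edgeR's adjusted p = 0.00153) and not called at D7 (-0.85 ± 0.16). Col12a1 had the opposite sign, at 75.96 and 75.6 FPKM in control, 111 and 104 at D4 and 102 and 91.02 at D7, and its 0.50 ± 0.11 and 0.35 ± 0.11 did not reach 2-fold. Col16a1, at 60.1 and 60.9 FPKM in control, 47.9 and 55.6 at D4 and 129 and 98.2 at D7, was likewise not called against control (-0.23 ± 0.15 and 0.91 ± 0.15), although both D7 nerves stood above the other 4. Col19a1 was scarce, with 21 and 88 counts in control, 12 and 11 at D4 and 3 and 17 at D7, the most in control rat b. Its fitted level was 6.99-fold lower at D4 (-2.81 ± 0.97) and 6.45-fold lower at D7 (-2.69 ± 0.98), and edgeR did not call it (adjusted p = 0.0587 and 0.0762). DESeq2 called it lower at both days (adjusted p = 0.0197 and 0.0286), and without control rat a edgeR did so too (-3.55 and -3.43). Without either D7 rat it was called lower at D4 (-2.76 and -2.80). In the same way Col14a1 gained a D7 call without control rat a (-1.03) and Col16a1 one without D7 rat b (1.09) or without TMM factors (1.199).

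Among the 17 collagens of other types, 15 were tested, of which 3 were higher and 3 lower at D4 and 2 higher and 4 lower at D7. Type VI, whose chains form beaded microfibrils around cells, was nearly level. Col6a1 was at 358 and 394 FPKM in control, 407 and 382 at D4 and 352 and 327 at D7. Col6a2 was at 311 and 331, 358 and 349 and 304 and 294 FPKM, and Col6a3 at 107 and 166, 156 and 129 and 124 and 133 FPKM. The 95% intervals of the log2 fold change at D4 were -0.19 to 0.33 for Col6a1, -0.09 to 0.38 for Col6a2 and -0.48 to 0.60 for Col6a3, and at D7 -0.41 to 0.11, -0.34 to 0.13 and -0.62 to 0.45, each inside 2-fold.

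The later type VI chains, which can replace Col6a3 in the trimer, were not alike. Col6a6 was at 33.4 and 29.2 FPKM in control, 25.5 and 28 at D4 and 26.3 and 24.9 at D7 and was not called (-0.23 ± 0.11 and -0.29 ± 0.11). Col6a5 was at 27.2 and 11.7 FPKM in control, 13.5 and 11.2 at D4 and 4.098 and 6.84 at D7. Its control rats differed by over 2-fold, and it was called lower at D7 (-1.83 ± 0.43, edgeR's adjusted p = 0.02). The gene lost that call without D7 rat a (-1.48). Without control rat b it was called lower at D4 (-1.14). Col6a4 was called higher at D4 (2.13 ± 0.39) on 41 and 54 counts against 8 and 7 in control, and not without D4 rat b (1.998, adjusted p = 0.0559, edgeR).

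Col7a1 and Col18a1 were higher at both days. Col7a1 (chr8:117694605-117726844 on Rnor_6.0), the anchoring fibril collagen that ties epithelial basement membranes to the matrix below, was at 0.719 and 1.49 FPKM in control, 13.3 and 13.5 at D4 and 16.1 and 13.3 at D7. That was 12.2-fold higher at D4 (3.61 ± 0.33, edgeR's adjusted p = 0.000536) and 13.4-fold at D7 (3.74 ± 0.33, adjusted p = 0.000754). Col18a1 (chr20:12225202-12332858), a basement membrane collagen with heparan sulphate chains and the source of endostatin, was at 53.2 and 83.3 FPKM in control, 239 and 276 at D4 and 316 and 248 at D7, 3.77-fold (1.91 ± 0.24) and 4.14-fold (2.05 ± 0.25) higher with an edgeR adjusted p of 0.00177 and 0.00192. Col18a1 thus rose while all 5 type IV genes, the network collagens of the same structure, had values below 0. At D7 its level was above that of Col4a1 and Col4a2 in each library, and in control it was below both.

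The 2 chains of type VIII, a hexagonal network collagen of vessel wall and of the membrane under the corneal endothelium, had values of opposite sign. Col8a1 was at 65.9 and 65.2 FPKM in control, 120.3 and 133 at D4 and 81.02 and 113 at D7, just short of 2-fold at D4 (0.95 ± 0.17) and smaller at D7 (0.56 ± 0.17), and not called at either day. Its D4 value passed 2-fold and was called without D4 rat a (1.03) and without TMM factors (1.24). Col8a2 was at 43.5 and 30.98 FPKM in control, 11.6 and 11.8 at D4 and 15.2 and 13.04 at D7 and fell 3.18-fold (-1.67 ± 0.18, edgeR's adjusted p = 0.000921) and 2.63-fold (-1.40 ± 0.18, adjusted p = 0.00236). Col28a1 (chr4:34048533-34194764), a collagen known chiefly from peripheral nerve, was at 22.9 and 23.1 FPKM in control, 1.16 and 1.26 at D4 and 13.1 and 8.34 at D7. It was 18.9-fold lower at D4 (-4.24 ± 0.24, edgeR's adjusted p = 0.0001603) and 2.15-fold lower at D7 (-1.10 ± 0.21, adjusted p = 0.00899), the D7 call being lost without D7 rat b (-0.82) and without TMM factors (-0.81).

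Col15a1, the basement membrane relative of Col18a1, was listed at 0 in all 6 libraries. A row described as collagen alpha-1(XV) chain-like (LOC100909752), chosen after its values were seen, held 346 and 233 counts in control, 542 and 614 at D4 and 446 and 364 at D7. It stayed under 2-fold (0.49 ± 0.16 and 0.29 ± 0.16, edgeR's adjusted p = 0.0447 and 0.195).

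Of the membrane-spanning collagens, Col23a1 had 89 and 33 counts in control, 2 and 1 at D4 and 9 and 8 at D7. Pooled over rats and scaled for depth, its control level was 58.1 times that at D4, with a counting interval of 19.4 to 286 (95%, exact, counting error only). It was called lower at D4 (-5.68 ± 0.70) and at D7 (-2.99 ± 0.56). Col13a1, Col17a1 and Col26a1 were not called, and the control rats alone spanned 0.524 to 3.23, 0.282 to 0.701 and 1.05 to 4.13 FPKM. In 2 of them the control rats disagreed: Col13a1 held 30 and 158 counts in control and 36 to 52 after the crush. Col26a1 held 244 and 53 in control and 183 to 290 after it. Without control rat a, which leaves control rat b as the only control, Col13a1 was called lower (-2.32 at D4 and -2.45 at D7, against -1.53 and -1.66 with both). Col26a1 was then called higher (1.67 and 1.70, against 0.36 and 0.39). Col10a1, the hypertrophic cartilage collagen, and Col25a1, a neuronal transmembrane collagen, held 1 to 6 and 0 to 18 counts per library and did not pass the filter for testing.

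Between the crushed groups, 7 collagen genes (17.9%) were higher and 1 (2.56%) lower at D7 than at D4, against 1.68% and 0.494% of all mRNAs tested. The 7 were Col28a1 (3.14 ± 0.23), Col2a1 (4.52 ± 0.48), Col24a1 (2.37 ± 0.25), Col9a3 (1.38 ± 0.26), Col27a1 (1.36 ± 0.22), Col9a2 (1.33 ± 0.20) and Col16a1 (1.13 ± 0.15), with edgeR adjusted p-values from 0.0117 to 0.0448. Col9a1 was the 1 that was lower (-1.04 ± 0.18, adjusted p = 0.0372). Col28a1, Col2a1 and Col24a1 were below control at both days and nearer to it at D7, whereas Col27a1 and Col9a2 were above control at D7. None of the 5 type IV genes was called between the days (edgeR; 0 passed an unadjusted p under 0.05 and DESeq2 called 0).

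These calls rested on both D4 rats. Without D4 rat a or without D4 rat b, edgeR called 0 of the collagen genes and 0 of all mRNAs, while 10 and 9 collagen genes were higher and 2 and 2 lower at an unadjusted p under 0.05. Without D7 rat a, 3 were called higher (Col2a1, Col24a1 and Col28a1) and 0 lower, with 9 and 2 at an unadjusted p under 0.05. The log2 fold changes kept their sign, from 4.36 to 4.70 for Col2a1, 3.08 to 3.20 for Col28a1, and 2.27 to 2.48 for Col24a1 with either D4 rat left out. Those of the other 5 were 1.15 and 1.66 (Col9a3), 1.35 and 1.37 (Col27a1), 1.23 and 1.44 (Col9a2), 1.03 and 1.24 (Col16a1), and -1.24 and -0.81 (Col9a1). With 1 D4 rat left, its spread is assumed to equal that of the other groups.

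The 6 Schwann cell markers read here took several courses, with Mbp and Egr2 lowest at D4. Mbp, a protein of compact myelin, was at 3638 and 2208 FPKM in control, 214 and 204 at D4 and 549.6 and 348 at D7. Egr2, a transcription factor of myelinating Schwann cells, was at 90.8 and 34.7, 5.09 and 7.12 and 27.7 and 21.7 FPKM. In both genes the D7 rats lay above the D4 rats and below the control rats, and neither passed the test between the days (1.10 ± 0.30 and 2.02 ± 0.46, edgeR's adjusted p = 0.0947 and 0.0652). Ngfr, the low-affinity neurotrophin receptor, was highest at D4, at 7.04 and 6.41 FPKM in control, 573 and 608 at D4 and 341 and 323 at D7 (D7 against D4 -0.83 ± 0.10, under 2-fold). Erbb3, the neuregulin receptor chain, was at 112 and 93.1, 210.1 and 239 and 296 and 262 FPKM and rose at both days against control. Sox10, a lineage transcription factor, was at 118 and 84.96, 98.4 and 114 and 180.2 and 133 FPKM, with D4 overlapping control, and S100b, a calcium-binding protein, at 1442 and 1212, 755 and 755 and 765 and 596 FPKM, with D4 and D7 overlapping. The part of Schwann cell RNA in the collagen values was not tested.

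**Figure D3:**
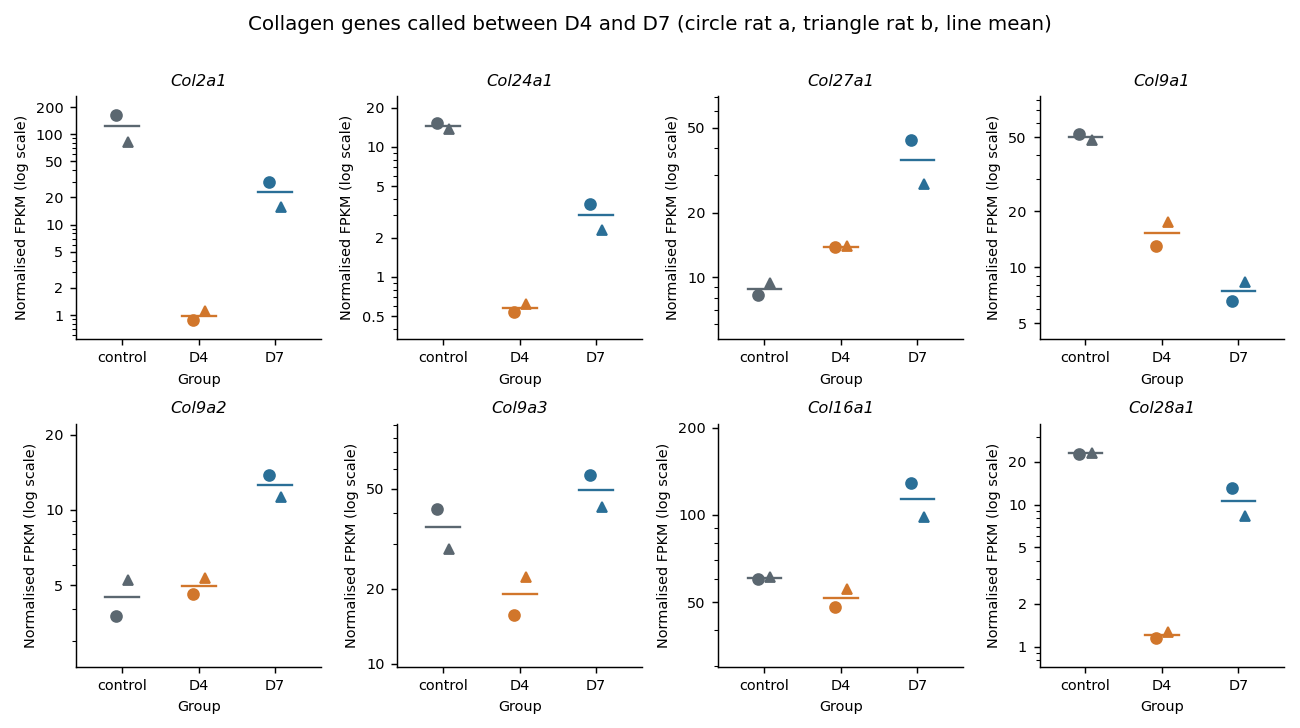
Normalised FPKM on log axes (vertical) of the 8 collagen genes called between D4 and D7, by group (horizontal), with circles for rat a, triangles for rat b and lines for the means of 2 rats. In Col2a1, Col24a1 and Col28a1 both D4 points lie far below the D7 and control points, in Col27a1, Col9a2, Col9a3 and Col16a1 both D7 points lie highest, and in Col9a1 they lie lowest.

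Ratios of deposited FPKM within a library do not depend on scaling between libraries, and are given without a test. The ratio of Col9a1 to Col9a3 was 1.25 and 1.69 in control, 0.837 and 0.788 at D4, and 0.117 and 0.197 at D7, falling from group to group. That of Col8a1 to Col8a2 was 1.52 and 2.10 in control, 10.4 and 11.3 at D4, and 5.31 and 8.66 at D7. Col5a3 to Col5a1 went from 1.44 and 1.15 to 0.479 and 0.480 and then to 0.777 and 0.630. In these 3 pairs no crushed nerve overlapped a control nerve.

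Some other pairs kept nearer to their control ratio. Col4a1 to Col4a2 was 1.59 and 1.58 in control, 1.41 and 1.40 at D4, and 1.29 and 1.35 at D7, a narrow decline with no overlap of groups. Col6a1 to Col6a2 stayed between 1.09 and 1.19 in all 6 libraries. Col3a1 to Col1a1 was 1.33 and 1.40 in control, 1.28 and 1.23 at D4, and 1.57 and 1.51 at D7. Further pairs moved more. Col9a1 to Col9a2 was 13.7 and 9.29 in control, 2.84 and 3.28 at D4, and 0.479 and 0.735 at D7. Col11a1 to Col11a2 was 6.95 and 7.94 in control, 13.2 and 17.1 at D4, and 11.6 and 11.1 at D7. Col9a2 to Col9a3 was 0.0910 and 0.182 in control, 0.295 and 0.240 at D4, and 0.244 and 0.268 at D7. The widest change was that of Col2a1 to Col11a1, from 3.31 and 1.72 in control to 0.0293 and 0.0289 at D4 and 0.861 and 0.495 at D7.

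**Figure D4:**
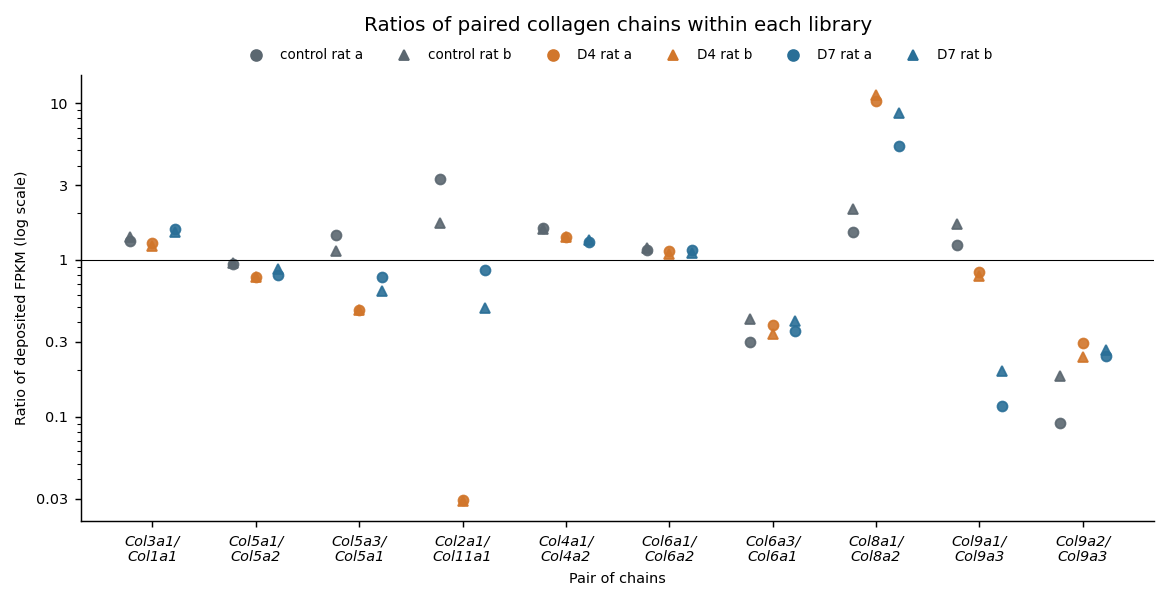
Ratio of deposited FPKM on a log scale (vertical axis) of 10 pairs of collagen chains (horizontal axis) in each library, coloured by group with circles for rat a and triangles for rat b, and a line at 1. The points of Col6a1/Col6a2 lie together, while Col9a1/Col9a3 steps down from control to D7 and Col8a1/Col8a2 steps up after the crush.

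The collagen genes took 6.03% and 6.67% of all mRNA counts in control, 5.21% and 4.77% at D4, and 4.39% and 4.66% at D7. The group means were 6.35% ± 0.456, 4.99% ± 0.313 and 4.53% ± 0.188 (SD, n = 2), and no crushed nerve reached a control nerve. Fibrillar genes made 5.04% and 5.54% of counts in control and 3.28% to 4.05% after the crush. Type IV genes made 0.377% and 0.414% in control and 0.1903% to 0.234% after it, FACITs 0.191% and 0.214% and then 0.206% to 0.2704%, and the 17 remaining collagens 0.421% and 0.508% and then 0.6395% to 0.715%. Col1a2 and Col15a1, listed at 0, add nothing to these shares. Col3a1 and Col1a1 ranked among the 3 mRNAs with the most counts in every library. Leaving out the 18 mRNAs that were among the 10 most counted of any library, which held these 2 collagens, lowered the means to 1.97%, 1.65% and 1.70%.

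**Figure D5:**
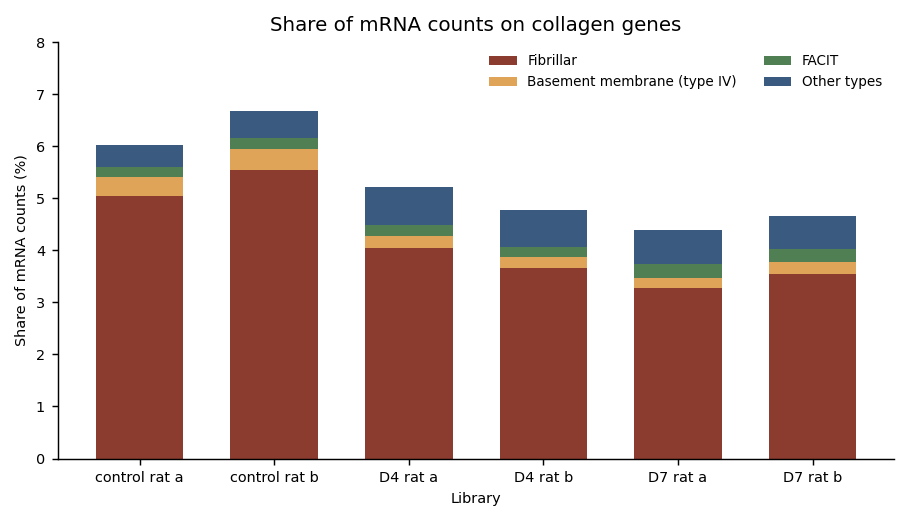
Share of all mRNA counts in percent (vertical axis, from 0) that fell on collagen genes in each library (horizontal axis), stacked by type. The control bars reach 6.03% and 6.67% and the bars of the crushed nerves 4.39% to 5.21%, with most of each bar fibrillar.

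Genes that make, process, link, degrade or bind collagen were read as 5 lists of 55 genes, of which 53 were tested. At D4, 6 were higher and 3 lower, and at D7 7 were higher and 3 lower, shares of 11.3%, 5.66%, 13.2% and 5.66% against the 11.2%, 10.7%, 9.83% and 9.02% of all mRNAs. The median log2 fold change over the lists was 0.11 at D4 and 0.13 at D7. By list, chain folding and hydroxylation had 2 of 21 higher and 2 lower at D4 and 2 higher at D7. Propeptide removal had 1 of 8 higher and 1 lower at D4 and 1 lower at D7. Cross-linking had 1 of 7 higher at both days and 1 lower at D7, uptake and breakdown 1 of 7 higher at D4 and 2 at D7, and collagen receptors 1 of 10 higher at D4 and 2 higher and 1 lower at D7. Without TMM factors the D4 counts were 12 higher and 1 lower and the D7 counts 9 and 1. Leaving out libraries also moved them: the 7 higher at D7 were 2 without control rat a or D7 rat a and 3 without control rat b, the 3 lower at D7 were 1 without control rat b or D7 rat a and 2 without D4 rat a or D4 rat b, and the 3 lower at D4 were 1 without control rat b and 2 without D4 rat a or D4 rat b. The 6 higher at D4 fell to 4 without control rat a or D4 rat a.

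The largest rise in biosynthesis was that of P4ha3, a catalytic subunit of prolyl 4-hydroxylase, at 0.341 and 0.2905 FPKM in control, 6.75 and 3.65 at D4 and 1.19 and 3.01 at D7 (4.02 ± 0.61 and 2.71 ± 0.62, edgeR's adjusted p = 0.00334 and 0.0178). The much more abundant subunit P4ha1 was at 135 and 180.0 FPKM in control, 71.3 and 67.1 at D4 and 89.4 and 93.9 at D7 and was lower at D4 (-1.18 ± 0.15). So was Colgalt2, a collagen galactosyltransferase, at 2.66 and 5.66, 1.77 and 1.398 and 1.702 and 3.03 FPKM (-1.39 ± 0.45). Tll1, a tolloid proteinase that removes procollagen C-propeptides, was at 20.6 and 16.6 FPKM in control, 4.5 and 4.89 at D4 and 5.32 and 5.36 at D7 and fell at both days (-1.99 ± 0.13 and -1.80 ± 0.13). Lox, a lysyl oxidase that starts cross-linking, was at 50.3 and 70.3, 42.9 and 34.6 and 19.95 and 32.3 FPKM and was lower at D7 (-1.21 ± 0.27).

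Among degrading enzymes, Mmp9, a gelatinase, held 4 and 0 counts in control, 76 and 134 at D4 and 23 and 82 at D7. Mmp8, the neutrophil collagenase, held 3 and 1, 264 and 9 and 387 and 153 counts. Mmp9 was called higher at both days (5.13 ± 1.06 and 4.47 ± 1.08) and Mmp8 at D7 (6.79 ± 1.89), values that rest on a control total of 4 counts each. Pooled over rats and scaled for depth, D7 stood at 117 times control for Mmp8 (95% counting interval 45.5 to 431). Of the receptor chains, Itga10, an integrin chain that binds collagen, was at 0.276 and 0.0957 FPKM in control, 1.36 and 1.08 at D4 and 1.39 and 0.785 at D7. Itga10 was higher at D4 (2.68 ± 0.52) and at D7 (2.52 ± 0.52). Itga1, the collagen-binding chain of integrin alpha1beta1, was at 27.7 and 52, 22.8 and 21.9 and 16.8 and 22.9 FPKM and was lower at D7 (-1.003 ± 0.30), at the 2-fold threshold.

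At the same loci, 79 lncRNAs of the separate lncRNA table overlapped the spans of 32 collagen genes on Rnor_6.0, 69 of them lying wholly inside the host. Of 57 tested, 13 (22.8%) were called at D4, 2 higher and 11 lower, and 11 (19.3%) at D7, 6 higher and 5 lower, against 10.1% and 5.79% of all lncRNAs tested in either direction. At D4 12 of the 13 had a host called the same way, and at D7 8 of the 11. The strand setting of the counting was not given in the sources used here, so reads of a lncRNA and of its host cannot be told apart.

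The 3 called lncRNAs with the most counts were NONRATT022668.2, NONRATT025965.2 and NONRATT022625.2. NONRATT022668.2, inside Col16a1 (chr5:148296496-148311645), held 629 and 421 counts in control, 589 and 945 at D4 and 1990 and 1336 at D7 and was higher at D7 (1.57 ± 0.30, edgeR's adjusted p = 0.0427). NONRATT025965.2, across the end of Col14a1 (chr7:95255504-95274074), held 1196 and 1117, 449 and 462 and 809 and 862 counts and was lower at D4 (-1.50 ± 0.14), as Col14a1 was. NONRATT022625.2, inside Col8a2 (chr5:144334170-144335141), held 1124 and 912, 78 and 58 and 317 and 317 counts and was lower at both days (-4.05 ± 0.26 and -1.77 ± 0.24). NONRATT030680.2, across the end of Col4a5 (chrX:112941187-112983720), held 64 and 2 counts in control, 337 and 309 at D4 and 94 and 3 at D7. The control rats disagreed and so did the D7 rats, and it was not called at either day (3.18 ± 1.64 and 0.49 ± 1.57). MSTRG.7123.1, inside Col26a1 and chosen after its values were seen, held 305 and 230, 2 and 1 and 22 and 5 counts and was lower at both days, while Col26a1 was not called.

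RefSeq promoter windows on GRCr8 were matched by symbol for 32 of the 41 collagen genes (35 windows, since a gene can have more than 1 start in the table). The genes with no match were Col1a1, Col2a1, Col3a1, Col6a2, Col9a3, Col12a1, Col14a1, Col22a1 and Col25a1. The 250 bases before each start were searched on both strands for the GC box letters GGGCGG, for the CAAT box letters CCAAT and for the TATA box letters TATAAA, none of which contains another. GGGCGG stood in 19 of the 35 collagen windows (18 genes) and in 30.5% of all 33469 windows. CCAAT stood in 11 of the 35 (10 genes) and in 34.0% of all. TATAAA stood in 3 of the 35 (Col10a1, Col13a1 and Col17a1) and in 12.9% of all. Col4a1, Col4a2, Col4a5 and Col4a6 held GGGCGG and Col4a4 did not. Among genes called higher than control at either day, Col7a1, Col18a1, Col20a1 and Col27a1 held it. Col6a4 and Col9a2 did not, and Col22a1 had no window. Among genes called lower outside type IV, Col5a3, Col8a2, Col11a2, Col23a1 and Col24a1 held it. Col6a5, Col9a1 and Col28a1 did not, and Col1a1, Col2a1 and Col14a1 had no window. A match shows the letters in the window and nothing of a factor.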

How the data were processed

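RNA of 6 sciatic nerves (2 rats in each of 3 groups, grouped by the labels) was sequenced by the authors after removal of ribosomal RNA. Per the methods and the submitters' processing notes, reads were mapped to Rnor_6.0 with HISAT2 2.0.4 and fragments were assembled and counted with StringTie 1.3.0. The strand setting was not given in the sources used here. The deposited counts are unnormalised whole numbers per gene or lncRNA transcript. FPKM, also deposited, scales the authors' counts for gene length and library total. These levels were divided here by TMM factors (0.863 and 0.885 in control, 1.06 to 1.08 in D4 and D7) scaled to a geometric mean of 1.

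edgeR 4.0.16 in R 4.3.3 was run on the whole mRNA table, and separately on the lncRNA table (filterByExpr, TMM, glmQLFit and glmQLFTest, 1 fit of 6 libraries), and the method was tested on simulated data. Standard errors were taken as the size of the log2 fold change over the root of its F statistic. The alternatives were 2-group fits, the replicate letter as a block, DESeq2 1.42.0, no TMM factors, other count filters, glmTreat beyond 2-fold, and each library left out. Replicate letters did not pair rats: deviations from group means correlated at 0.0074 (control and D4), 0.18 (control and D7) and -0.12 (D4 and D7).

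Of 44 rows with a collagen symbol (43 symbols), Col1a2, Col15a1 and a second Col23a1 row were at 0 throughout and were left out. Collagen types, partner and marker lists were chosen with earlier results of these data known. Some Schwann cell markers are not reported here. Each kept gene is named at least once. Values in every library are given for genes with a mean of at least 10 FPKM in a group, genes called between D4 and D7, Col4a5, Col9a1 and the largest called rise and fall of each type. Of the partner lists, the 3 largest called rises and falls at each day are given, and of the lncRNAs NONRATT030680.2 and the 3 called ones with the most counts. Figures were drawn with matplotlib 3.10.9.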

Additional observations from a re-analysis of the deposited data

Results flagged for a closer look

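The effects of the crush at D4 and at D7 differed, by the test of D7 against D4 itself, in 8 collagen genes (edgeR's quasi-likelihood test, Benjamini-Hochberg adjusted over 15195 mRNAs, 2 rats per group). The log2 difference, D7 minus D4, was 4.52 in Col2a1, 3.14 in Col28a1, 2.37 in Col24a1, 1.38 in Col9a3, 1.36 in Col27a1, 1.33 in Col9a2, 1.13 in Col16a1 and -1.04 in Col9a1. In each of these genes both D7 rats lay on the same side of both D4 rats. The genes were picked by the test on the same counts, so that this lack of overlap is no further support. Of the 39 tested collagen genes, 14 had both D7 rats above both D4 rats and 11 had both below. The share over all mRNAs was not taken, so these 2 counts are not read as a result about collagen genes. The calls rested on both D4 rats, as given above. Groups of 2 are too small to judge a rat as an outlier.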

How the results depend on the processing

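Counts of called collagen genes stayed within 1.5 times the reported ones under most alternatives. Under glmTreat, which tests for a change beyond 2-fold, 3 were higher and 9 lower at D4, 5 were lower at D7, and 2 were higher and 0 lower at D7 against D4. The 2-group fit gave 2 lower at D7 against D4. With 1 library left out, D7 against D4 gave 0 to 7 higher and 0 to 1 lower. The replicate letter as a block, where the samples share only a letter, gave 5 higher and 14 lower at D4, 6 and 15 at D7, and 5 and 1 at D7 against D4, with no pairing of rats. Without the most abundant mRNAs the collagen share was 1.97% in control, 1.65% at D4 and 1.70% at D7. Of 117 gene comparisons, 47 were called. Of these, 22 kept the call under every alternative in which the gene was tested, while 25 lost it under at least 1, 16 of them without some library. Col23a1, for 1, was too scarce at D4 to be tested where every library had to hold 10 counts. Of the other 70, 13 in 9 genes were called under at least 1 alternative, 12 of them without some library. No called value reversed. The cause of these changes was not tested. Counts per annotated length were not run because the mRNA table holds no length. Col10a1 and Col25a1, left out by the count filter, were tested without it and not called.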
